A study of Mus musculus with 24 samples.

Results

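Female and male mouse pituitaries were compared across autosomal genes in the 12 libraries that carried no Cre, of 24 libraries in the series. The comparison took every library without Cre, 6 from females and 6 from males, with genotype as a block. It covered 19585 autosomal genes with enough counts to test, of 33844 autosomal genes in the table. The series measured polyadenylated RNA of the pituitary in mice with a conditional deletion of Egr1, an immediate early transcription factor, and in their controls. The 12 libraries came from 4 groups of 3. Complete wild type females and males carried neither a floxed Egr1 allele nor Cre, and are called wild type here. Females and males of the group titled Egr1cKO control carried the floxed allele, written FF (-) in the labels, without Cre. What the 12 shared was the absence of Cre, so no conditional deletion was induced in any of them. The other 12 libraries, used below only for comparison, carried Cre on the wild type (Cre control) or on the floxed background (Egr1cKO).

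For the mice, the sources used here give no age, estrous stage or strain, and they do not name the promoter that drove Cre. Each title carries a number of its own but no label calls the libraries separate animals, so p-values measure the spread between these libraries. The wild type numbers lay between 4042 and 4056 and the Egr1cKO control numbers between 4935 and 4955, so genotype and this numbering cannot be told apart. In whole tissue, fewer cells of a type and less RNA per cell cannot be told apart either.

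The anterior pituitary holds hormone-producing cells that each make their own hormone: gonadotropes make follicle-stimulating and luteinising hormone, lactotropes prolactin, somatotropes growth hormone, corticotropes the precursor Pomc and thyrotropes thyroid-stimulating hormone. Fshb, the beta subunit of follicle-stimulating hormone, is driven by gonadotropin-releasing hormone and by activin, and gonadal inhibin and steroids act back on it. Estrogen raises prolactin synthesis in lactotropes through the estrogen receptor Esr1, which binds a palindrome of short motifs.

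The 12 libraries held 17794994 to 26255343 counts. Counts of Xist and of Y-linked genes matched the sex label in 24 of 24 libraries, and no pair of the 12 libraries agreed within sampling noise. Hormone genes of the labelled tissue were abundant: Gh took 5.17 to 31.8% of the counts, Prl 1.64 to 14.5% and Pomc 0.616 to 4.27%. Markers of the posterior lobe were also detected, with a summed level of 422 to 600 CPM (counts scaled to library size) in females and 276 to 559 in males. Female wild type replicate 1 stood apart. Mitochondrially encoded genes took 10.1% of its counts, against 2.08 to 6.87% in the other 11 libraries, and it had the fewest genes detected at equal depth, 18609 against 19856 to 25317. Its log2 CPM differed from the other female wild type libraries with SDs over genes of 0.976 and 0.985, against 0.291 to 0.503 for the other 10 pairs within a group. Counts and calls are therefore given with all 12 libraries first, and then without this one. Between the sexes, the mitochondrial share was 4.93% ± 3.01 (SD, n = 6) in females and 3.21% ± 1 (SD, n = 6) in males, and the groups overlapped (exact permutation test, two-sided, p = 0.238; the smallest p this design allows is 0.00216).

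Of the 19585 autosomal genes, 164 differed between the sexes (0.837%; edgeR quasi-likelihood test, Benjamini-Hochberg adjusted p under 0.05). Of these, 66 were higher in females (0.337%) and 98 higher in males (0.5%), and 92 differed by at least 1 on the log2 scale. Crhbp, Ptpn5, Vwde and Prl were among those higher in females, and Fshb, Grem1, Drd4 and Ramp1 among those higher in males. By type, 156 of the 164 were protein coding. They lay on all 19 autosomes, from 2 of 647 genes tested on chromosome 19 (0.309%) to 23 of 1507 on chromosome 2 (1.53%). A further 16 genes passed on the X and Y chromosomes, of 643 tested there, and are not described. An unadjusted p under 0.05 was found for 1988 genes (10.2%). All female libraries lay above all male libraries for 109 autosomal genes (0.557%), and all male above all female for 206 (1.05%), together 315 genes (1.61%). Among the 164 genes, 129 had no overlap between the sexes.

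Promoters of genes that the result turns on are shown to set the sequence beside the values, because sex steroid receptors and SF-1, the gonadotrope nuclear receptor Nr5a1, act through short motifs. Fshb, Crhbp and Grem1 are shown for the size of their differences, Prl as a hormone gene whose window lacks the motif, and Oxt because it was chosen, after the search, for holding the SF-1 motif. The sequences are the 250 bases before the RefSeq start site, build GRCm38.p6, written 5′ to 3′ along the gene's strand. Capitals mark the motif GGTCA or its reverse complement TGACC, and in Oxt also the SF-1 motif on the reverse strand, which overlaps them. The estrogen response element searched was GGTCANNNTGACC, which holds both GGTCA and TGACC.
Fshb, chr2:107059652-107059901, minus strand: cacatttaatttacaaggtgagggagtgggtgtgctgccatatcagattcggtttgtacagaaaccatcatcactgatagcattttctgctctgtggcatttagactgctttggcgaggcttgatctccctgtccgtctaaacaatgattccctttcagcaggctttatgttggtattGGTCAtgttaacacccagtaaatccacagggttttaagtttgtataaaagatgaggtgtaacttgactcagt
Crhbp, chr13:95444832-95445081, minus strand: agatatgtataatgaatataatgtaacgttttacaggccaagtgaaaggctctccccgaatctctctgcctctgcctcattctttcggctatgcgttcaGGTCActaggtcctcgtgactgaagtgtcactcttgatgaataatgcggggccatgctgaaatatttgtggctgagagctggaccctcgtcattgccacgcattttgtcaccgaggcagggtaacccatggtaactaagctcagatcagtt
Grem1, chr2:113758649-113758898, minus strand: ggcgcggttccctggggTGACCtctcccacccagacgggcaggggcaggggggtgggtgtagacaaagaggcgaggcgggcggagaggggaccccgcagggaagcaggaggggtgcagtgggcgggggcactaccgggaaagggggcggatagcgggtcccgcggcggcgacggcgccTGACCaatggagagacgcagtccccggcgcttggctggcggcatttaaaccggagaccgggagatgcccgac
Oxt, chr2:130575919-130576168, plus strand: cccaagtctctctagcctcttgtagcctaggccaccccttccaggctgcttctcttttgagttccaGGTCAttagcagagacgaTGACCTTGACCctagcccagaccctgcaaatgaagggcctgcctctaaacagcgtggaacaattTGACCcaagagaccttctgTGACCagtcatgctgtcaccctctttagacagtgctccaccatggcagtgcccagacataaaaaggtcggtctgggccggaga
Prl, chr13:27057320-27057569, plus strand: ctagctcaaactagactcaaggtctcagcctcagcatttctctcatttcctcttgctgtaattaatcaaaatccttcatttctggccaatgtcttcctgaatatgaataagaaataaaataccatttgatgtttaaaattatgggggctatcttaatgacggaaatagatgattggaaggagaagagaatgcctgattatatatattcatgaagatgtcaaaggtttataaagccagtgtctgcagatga

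The search covered a window of 300 bases, 50 of them after the start site. The upstream sequences of Fshb and Crhbp held 1 GGTCA motif each, that of Grem1 held 2 and that of Oxt, the gene of oxytocin, held 5, with no complete element, while that of Prl held none. Of other genes that passed, Ramp1 held 1 upstream motif and the listed promoters of Greb1 held 1 and 2. Drd4, Inhbb, Vwde and both listed promoters of Ptpn5 held none upstream. The SF-1 motif CAAGGTCA, which itself contains GGTCA, was present once upstream of Oxt, on the reverse strand. The 1 gene among those that passed whose window held the element was 4933406B17Rik, named after its values were seen. It held 26.9 to 92.7 CPM in females and 3.4 to 16.8 in males, without overlap. Of 12794 tested autosomal genes with a promoter in the table, 5 held the element (0.0391%), 43.0% held a GGTCA motif and 1.52% held the SF-1 motif, on either strand. Among the 56 genes higher in females that had a promoter, 1 held the element (1.79%), 33.9% held a GGTCA motif and 2 held the SF-1 motif (3.57%). Among the 77 genes higher in males, none held the element or the SF-1 motif and 42.9% held a GGTCA motif. Over all 32851 promoters of the table the shares were 0.07, 40.5 and 1.56%. A match describes the letters of the window only.

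Of 6 hormone genes, Prl was higher in females, Fshb was higher in males, and the other 4 did not pass the test. Fshb (ENSMUSG00000027120, chr2:107056140-107059656, GRCm38) ranged in females from 16.8 CPM over a median of 40.9 to 107, and in males from 494 over 676 to 1258. Every male library was thus above every female library. The mean was 48.4 ± 31.8 CPM in females and 753 ± 282 in males (SD, n = 6 each), a log2 fold change of female over male of -4.02 with a standard error (SE) of 0.391 (edgeR's adjusted p = 8.02e-05). It was -4.42 in wild type and -3.62 in Egr1cKO control. Prl (chr13:27057570-27065205), the hormone of lactation, ranged from 76405 CPM over a median of 126510 to 142646 in females and from 14746 over 37718 to 44820 in males. The groups did not overlap, and the lowest male value was that of male Egr1cKO control 2. Prl averaged 119081 ± 23934 CPM in females and 35306 ± 10673 in males (SD, n = 6 each; log2 fold change 1.76, SE 0.299, edgeR's adjusted p = 0.00928). Its log2 fold change was 1.74 in wild type and 1.77 in Egr1cKO control.

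The other hormone genes had overlapping groups. Gh, growth hormone, had a median of 118575 CPM in females and 196837 in males, with a log2 fold change of -0.90 (edgeR's adjusted p = 0.38, and 0.0457 with the mitochondrial share as a covariate). Cga, the alpha subunit shared by the glycoprotein hormones, had medians of 846 and 1716 CPM and a log2 fold change of -0.84 (edgeR's adjusted p = 0.216, and 0.0495 in DESeq2). Female Egr1cKO control 3 held 1774 CPM of Cga, above the other 5 females at 804 to 1000. Tshb, the beta subunit of thyroid-stimulating hormone, had a log2 fold change of -0.57 and Pomc one of 0.42 (edgeR's adjusted p = 0.539 and 0.801). Tshb overlaps Tspan2 on the opposite strand, and the libraries were not stranded, so reads of the pair cannot be told apart. Without female wild type 1, Gh and Tshb passed in wild type alone (log2 fold changes -1.75 and -1.47, edgeR's adjusted p = 0.0294 and 0.0397) and not in both genotypes together (edgeR's adjusted p = 0.209 and 0.62).

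**Figure D1:**
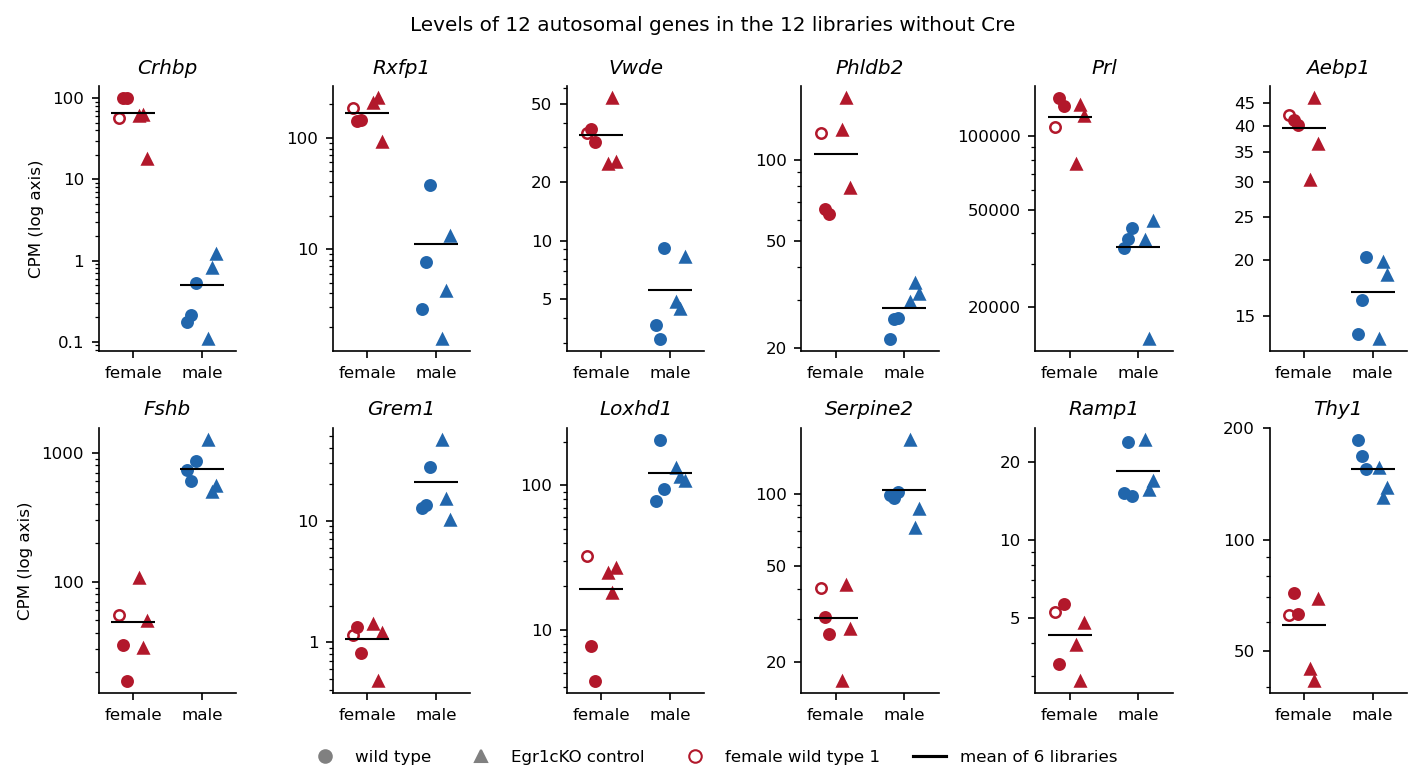
Levels in CPM (log axis) of 12 genes in the 6 female and 6 male libraries without Cre; circles are wild type, triangles Egr1cKO control, the open circle is female wild type 1, and lines are means of 6 libraries. In each panel the sexes do not overlap, and female wild type 1 lies among the other female libraries or, for Loxhd1 with 32.4 CPM, at their upper edge.

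Crhbp and Grem1, which encode secreted proteins, were each among the 15 largest differences in their direction. Crhbp (chr13:95431371-95444924), a secreted protein that binds corticotropin-releasing hormone, ranged from 17.7 CPM over a median of 61.4 to 100 in females and from 0.107 over 0.369 to 1.21 in males. Every female library was above every male one, and the lowest female, Egr1cKO control 3, held less than the others at 57 to 100. The means were 66.2 ± 30.8 and 0.506 ± 0.433 CPM (SD, n = 6 each; log2 fold change 6.90, SE 0.536, edgeR's adjusted p = 5.67e-06). Grem1 (chr2:113746164-113758646), a secreted antagonist of bone morphogenetic proteins, ranged from 0.475 CPM over 1.16 to 1.4 in females and from 10.2 over 14.2 to 46.1 in males. It was higher in all males, with means of 1.06 ± 0.351 and 20.8 ± 13.8 CPM (SD, n = 6 each; log2 fold change -4.27, SE 0.415, edgeR's adjusted p = 8.02e-05). Inhbb, the beta B subunit of inhibin B and activin B, ranged from 9.56 to 23.6 CPM in females and from 30.9 to 40.1 in males. These groups did not overlap either (log2 fold change -1.09, SE 0.183, edgeR's adjusted p = 0.00803). Inhbb was the only one of 17 tested members of the activin, inhibin and bone morphogenetic protein list to pass, and the list's median log2 fold change was 0.03. Without female wild type 1, Acvr1c, a type I receptor of the activin and nodal ligands, passed as well, higher in females (log2 fold change 1.29, edgeR's adjusted p = 0.0182, against 1.12 and 0.102 with all libraries). Oxt, which encodes oxytocin of the posterior lobe, was higher in females (39 to 94.5 against 12.5 to 37.8 CPM; log2 fold change 1.25, edgeR's adjusted p = 0.0361). Its highest value, 94.5 CPM, belonged to female wild type 1, and the other 5 females held 39 to 46.1.

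Receptors differed in both directions. Rxfp1 (chr3:79641611-79737880), the relaxin receptor, ranged from 90.9 CPM over 164 to 227 in females and from 1.55 over 5.99 to 37.7 in males. The groups did not overlap, and male wild type 3 held the highest male value (log2 fold change 4.01, SE 0.62, edgeR's adjusted p = 0.00502). Tacr1, the neurokinin 1 receptor for substance P, had 173 counts over the 6 females and 2 over the 6 males, a ratio of 87 (95% interval 23.7 to 724, counting error only). Drd4, the dopamine D4 receptor, had 0 counts in the 6 females and 384 in the 6 males, which held 2.08 to 5.12 CPM. Against a floor of 3 counts over the females, Drd4 was at least 127-fold higher in males (edgeR's adjusted p = 8.07e-04). Drd2, the main dopamine receptor of lactotropes, had a log2 fold change of 0.19 (edgeR's adjusted p = 0.894). Agtr1a, the angiotensin II receptor, was higher in males at 33.6 to 86 CPM against 9.95 to 23 in females (log2 fold change -1.77, SE 0.256, edgeR's adjusted p = 0.0035). Ramp1, which pairs with the calcitonin receptor-like receptor to bind calcitonin gene-related peptide, stood at 14.8 to 24.2 CPM in males and 2.85 to 5.67 in females (log2 fold change -2.10, SE 0.227, edgeR's adjusted p = 2.64e-04). Bdkrb2, the bradykinin B2 receptor, and Adcyap1r1, the receptor of the peptide PACAP, were likewise higher in every male library, with log2 fold changes of -2.52 and -0.97 (edgeR's adjusted p = 0.00502 and 0.00694). Adcyap1r1 was the only one of 19 receptors for hypothalamic inputs to pass, and their median log2 fold change was -0.15.

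Ihh and Gli1, both of the Hedgehog pathway, were low in both sexes and higher in males. No list of that pathway was tested. Ihh, the Indian hedgehog ligand, held 0.653 to 3.84 CPM in females and 5.02 to 15.4 in males (log2 fold change -2.55, SE 0.478, edgeR's adjusted p = 0.0193). Gli1, a transcription factor that is itself a target of Hedgehog signalling, held 0.309 to 2.26 CPM in females and 2.81 to 16.1 in males (log2 fold change -2.70, SE 0.495, edgeR's adjusted p = 0.0168). Neither gene overlapped between the sexes, and Gli1 shares its locus with Arhgap9 on the opposite strand, so part of its reads may be from that gene.

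Further genes, some of them chosen after their values were seen, are given singly and not as a group. Reln, a secreted matrix protein that guides migrating neurons, ranged from 37.2 CPM over 117 to 192 in females and from 2.03 over 6.14 to 40.7 in males. One pair of libraries overlapped: male wild type 3, at 40.7 CPM, lay above female Egr1cKO control 3, at 37.2 (log2 fold change 3.35, SE 0.588, edgeR's adjusted p = 0.0118). Vwde, a protein with von Willebrand factor D and EGF-like domains, was higher in every female at 24.5 to 53.6 CPM against 3.12 to 9.18 (log2 fold change 2.63, SE 0.293, edgeR's adjusted p = 2.98e-04). Phldb2, which anchors microtubules near cell adhesions, and Aebp1, a matrix protein that binds collagen, were also higher in every female, with log2 fold changes of 1.89 and 1.21 (edgeR's adjusted p = 2.75e-04 and 0.00128). Col1a2, a chain of type I collagen, was higher in females at 260 to 479 against 145 to 244 CPM (log2 fold change 0.89, edgeR's adjusted p = 0.0383), whereas Col1a1, the chain it assembles with, had a log2 fold change of 0.31 (edgeR's adjusted p = 0.651). In males, Thy1, a cell surface glycoprotein, held 130 to 186 CPM against 41.5 to 72.1 in females (log2 fold change -1.41, SE 0.141, edgeR's adjusted p = 1.07e-04). Serpine2, a secreted inhibitor of serine proteases, held 72.2 to 167 CPM in males against 16.6 to 41.6 in females (log2 fold change -1.77, SE 0.239, edgeR's adjusted p = 0.00203). Adamts2, the procollagen N-propeptidase, Megf10, an engulfment receptor, and Lcn2, a secreted carrier of siderophores, were higher in every male, with log2 fold changes of -2.13, -2.46 and -2.09.

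Several of the largest fold changes belonged to genes with few counts. Ppp1r1c, an inhibitor of protein phosphatase 1, had 147 counts over the 6 females and 0 over the 6 males, at least 49.3-fold higher in females against the floor of 3 counts over the males (edgeR's adjusted p = 0.0397). Ptpn5, a tyrosine phosphatase first described in the striatum, held 1.68 to 12.3 CPM in females and 0 to 0.536 in males (log2 fold change 4.49, SE 0.638, edgeR's adjusted p = 0.0034). Pdha2, the testis form of a pyruvate dehydrogenase subunit, Csmd3, a large membrane protein with CUB and sushi domains, and Rnase1, a secreted ribonuclease, had medians of 0.936, 2.32 and 1.58 CPM in females. Their male libraries held at most 0.13, 0.389 and 0.153 CPM, so none of the 3 overlapped between the sexes. Trim34b, a member of the tripartite motif family, had 407 counts in males and 1 in females. Male wild type 1 held none, male Egr1cKO control 2 held 0.153 CPM and the other 4 males 0.598 to 6.18, and the gene has a close paralogue, so its counts are uncertain. Opn3, a non-visual opsin, was higher in females (1.64 to 4.17 against 0.107 to 1.05 CPM) but lies on the same strand as Chml, which was also higher in females with a log2 fold change of 1.81 and had 4299 counts over the 12 libraries against 471 for Opn3.

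The remaining genes of the 15 largest in females were Capn8, a calpain protease, Tgm6, a transglutaminase, Dmrta1, a transcription factor with a DM domain, and Slitrk5, a synaptic adhesion protein. Their log2 fold changes were 3.10, 2.29, 2.16 and 2.14. Tgm6 and Slitrk5 did not overlap between the sexes, whereas Capn8 and Dmrta1 did. In males the remaining ones were Loxhd1, a protein of hair cell stereocilia, Fyb2, an adaptor protein, Cbln1, a secreted synaptic organiser, and Dapl1, with log2 fold changes of -2.71, -2.12, -1.92 and -1.87. All 4 were higher in every male than in any female, and Cbln1 overlaps Gm2694 on the opposite strand.

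At most 2 members of any of the 24 marker and pathway lists passed, beside a median log2 fold change of 0.00 over all autosomal genes tested. Of 11 gonadotrope genes, Fshb and Spp1, the secreted phosphoprotein osteopontin, were higher in males and 9 did not pass, with a list median of -0.51. Spp1 held 57.2 to 186 CPM in males and 29.2 to 38.7 in females, without overlap (edgeR's adjusted p = 0.0073). Of 8 lactotrope genes, Prl was higher in females, Agtr1a in males, and Esr1 had a log2 fold change of -0.03 (edgeR's adjusted p = 0.983). Of 8 somatotrope genes Dlk1, a membrane protein with EGF-like repeats, and of 6 thyrotrope genes Rxrg, a retinoid X receptor, were higher in males (log2 fold changes -0.92 and -0.70, edgeR's adjusted p = 0.0352 and 0.0477). Among 11 genes listed for corticotropes and melanotropes Crhbp passed and 10 did not, Pomc among them. Males held little Crhbp beside abundant Pomc, so the listing does not place the Crhbp difference in those cells. Among 13 stem and folliculostellate genes only Aldh1a2, which makes retinoic acid, passed, with 67.3 to 87.1 CPM in males and 27 to 46 in females (log2 fold change -1.07, SE 0.15, edgeR's adjusted p = 0.00301).

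Of 16 estrogen response genes, Greb1, a gene induced by estrogen in many tissues, was higher in females (78.1 to 188 against 47.7 to 88.5 CPM, overlapping; log2 fold change 1.06, edgeR's adjusted p = 0.0459). The other 15 did not pass, among them Pgr, the progesterone receptor, at 0.89 (edgeR's adjusted p = 0.279), and the median was 0.34. Of 9 androgen and glucocorticoid response genes, Fkbp5, a chaperone induced by both hormones, was higher in males (log2 fold change -1.21, edgeR's adjusted p = 0.0493) and the median was -0.35. Of 18 calcium and potassium channel genes, Cacna1a and Cacna1g, which encode pore subunits of P/Q-type and T-type calcium channels, were higher in females without overlap (log2 fold changes 0.68 and 1.19, edgeR's adjusted p = 0.0378 and 0.0397), and 16 did not pass. No member passed among 14 leukocyte, 9 class II histocompatibility, 5 red cell, 11 skeletal muscle, 12 secretory granule, 11 local neuropeptide, 20 cell cycle, 16 immediate early or 16 circadian genes. Egr1 itself, whose allele was floxed in 6 of the libraries, ranged from 9.62 to 157 CPM in females and from 18.2 to 49.5 in males (log2 fold change -0.11, edgeR's adjusted p = 0.976).

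Markers of other cells were measured beside these lists. Of 12 endothelial genes, Plvap, which forms the diaphragms of fenestrated capillaries, was higher in males (log2 fold change -0.66, edgeR's adjusted p = 0.0397), 11 of 12 values were negative, and the summed level was 189 to 290 CPM in females and 262 to 346 in males. Plvap overlaps Gtpbp3 on the opposite strand. Of 13 fibroblast and mural genes Col1a2 passed, the median was -0.00, and the sums were 1207 to 1554 CPM in females and 1350 to 1943 in males. Red cell genes had a median of -0.67 with 5 of 5 negative and summed to 131 to 370 CPM in females and 290 to 665 in males. Posterior lobe genes had a median of 0.65 with 11 of 12 positive, of which only Oxt passed. Without female wild type 1, Scn7a, a sodium channel, passed too, higher in females (edgeR's adjusted p = 0.0443, against 0.0925 with all libraries). Leukocyte genes summed to 98.5 to 177 CPM in females and 117 to 165 in males, and skeletal muscle genes to 58.9 to 106 and 65.9 to 95.6. The part of these 6 lists in the differences was not tested.

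**Figure D2:**
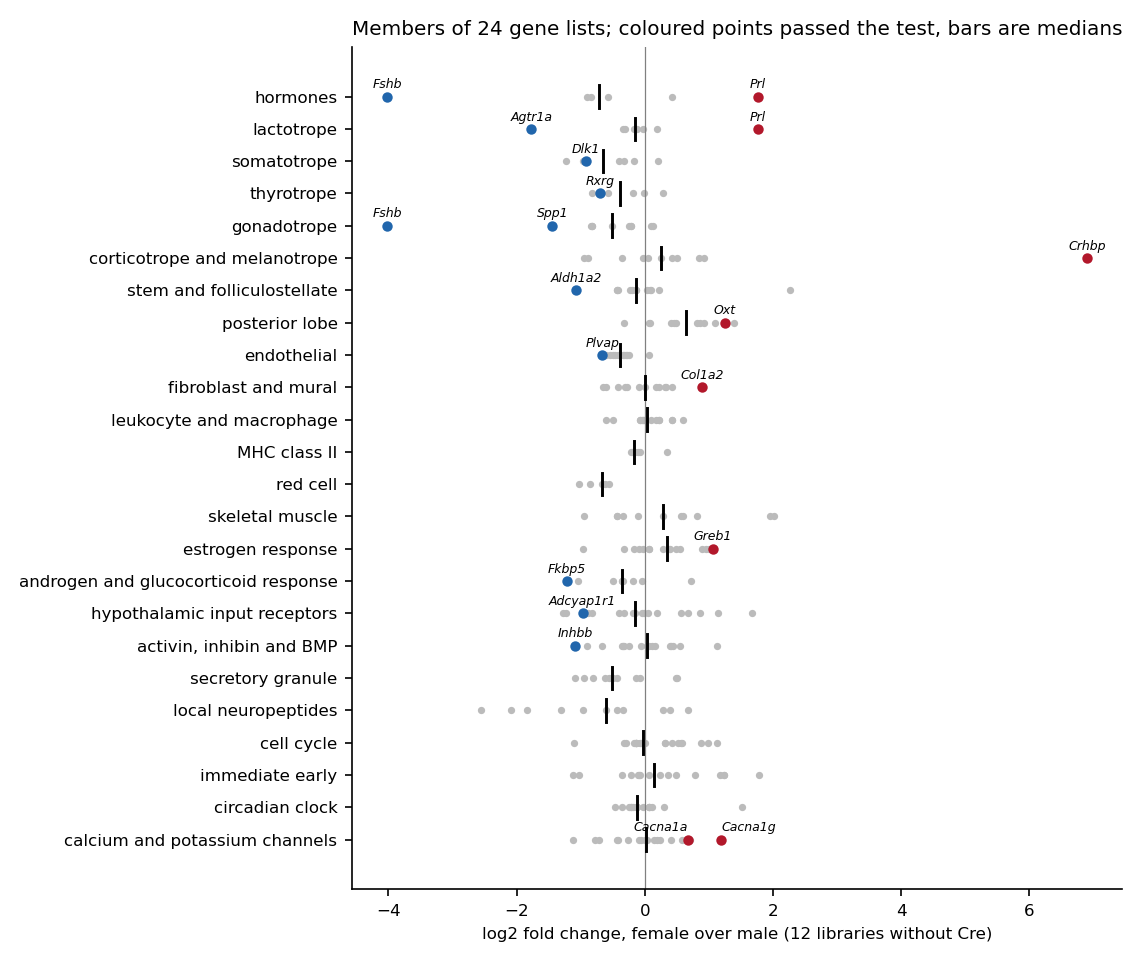
Log2 fold change of female over male for each tested autosomal member of 24 gene lists in the 12 libraries without Cre; red and blue points passed the test (higher in females and in males), grey points did not, and black bars are list medians. At most 2 members of any list passed, and Crhbp at 6.90 and Fshb at -4.02 lie farthest from 0.

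The 2 genotypes gave separate measurements of the sex difference from libraries that they do not share. In wild type alone, 16 autosomal genes passed (0.0817%), 6 higher in females (0.0306%) and 10 in males (0.0511%), and 1190 had an unadjusted p under 0.05 (6.08%). In Egr1cKO control alone 27 passed (0.138%), 11 higher in females (0.0562%) and 16 in males (0.0817%), and 2146 had an unadjusted p under 0.05 (11%). Both came from 1 edgeR model with 4 group means. Of the 16 found in wild type, 16 had the same sign in Egr1cKO control and 16 had an unadjusted p under 0.05 there. Of the 27 found in Egr1cKO control, 27 had the same sign in wild type and 25 an unadjusted p under 0.05. The 9 genes that passed in both were Crhbp, Vwde, Phldb2 and Chml, higher in females, and Fshb, Grem1, Drd4, Ramp1 and Thy1, higher in males. Over all autosomal genes tested, 53.4% had the same sign in both genotypes. Over 10504 genes whose log2 CPM averaged 3 or more, the fold changes in wild type and in Egr1cKO control had Pearson's r of 0.264 and Spearman's rho of 0.144, given as a description over genes of the same 12 libraries. No gene passed the sex by genotype interaction in edgeR (0%; 967 genes, 4.94%, had an unadjusted p under 0.05), and 1 passed in DESeq2. The 3 genes with the smallest interaction p, none of which passed, were Mbp, which encodes a myelin protein, Chn2, a Rac GTPase-activating protein, and Ltf, lactoferrin, with interaction log2 values of -1.68, -2.14 and -5.94 (edgeR's adjusted p = 0.881 for each). Without female wild type 1 their adjusted p was 0.00381, 0.00986 and 0.0246.

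**Figure D3:**
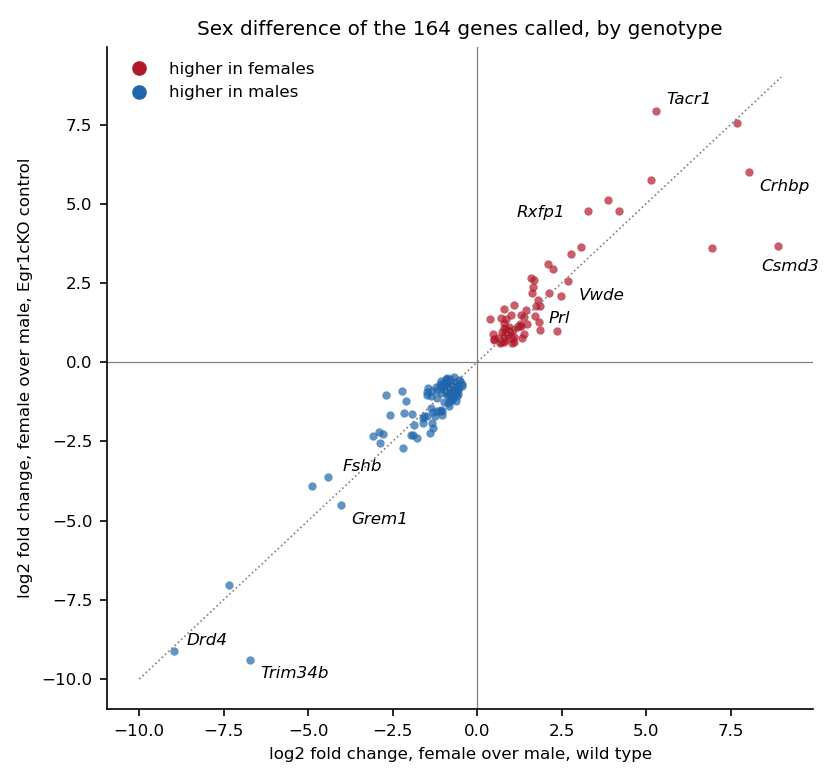
Log2 fold change of female over male in wild type (x axis) against Egr1cKO control (y axis) for the 164 autosomal genes that passed with both genotypes together; each point is a gene, red higher in females and blue higher in males, and the dotted line marks equal values. All 164 have the same sign in both genotypes, which their choice from both favours.

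With genotype as a block, 174 of 20715 autosomal genes passed without it (0.84%), 69 of them higher in females (0.333%) and 105 in males (0.507%), and 139 of these were among the 164 found with all 12 libraries. All 164 kept their sign, 25 no longer passed and 35 others did. Crhbp, Vwde, Fshb, Grem1, Prl, Ramp1 and Thy1 passed both ways, with log2 fold changes without the library of 6.96, 2.62, -4.17, -4.31, 1.80, -2.15 and -1.40. Of the genes described above, Rxfp1 (4.06, adjusted p = 0.0673), Reln (3.54, 0.0713), Capn8 (3.03, 0.0738) and Tgm6 (1.72, 0.0518) no longer passed edgeR's test with Benjamini-Hochberg adjustment. Greb1 (0.89, adjusted p = 0.0937), Cacna1a (0.63, 0.0584), Cacna1g (1.14, 0.0527) and Rxrg (-0.69, 0.0658) did not either, so no member of the estrogen response, channel or thyrotrope lists was left. Oxt (1.03, adjusted p = 0.0496) and Col1a2 (0.76, 0.0498) stayed just inside the threshold.

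Within a genotype, 1019 autosomal genes passed in wild type without that library (4.92%), 434 higher in females (2.1%) and 585 in males (2.82%), against 16 with it. In Egr1cKO control 1038 passed (5.01%), 426 higher in females (2.06%) and 612 in males (2.95%), against 27 with it. The Egr1cKO control libraries compared were the same with and without it. Only the count filter, the normalization and the spread, which are estimated over all groups together, could change there. The log2 fold changes of Prl and Fshb in Egr1cKO control were 1.78 and -3.61 without it. Of 169 genes that passed in both genotypes, 69 had the same sign and 100 the opposite one. The interaction rose from 0 to 2097 genes (10.1%), 1164 more female-biased in Egr1cKO control (5.62%) and 933 less (4.5%). Of these, 2039 had sex differences of opposite sign in the genotypes and 4 were among the 164 genes. These 4 were Abcb1b, Greb1, Ky and Loxhd1, with interaction adjusted p in edgeR of 0.00641, 0.0148, 0.0435 and 0.0358. Their log2 fold changes were 0.83, 0.20, 0.37 and -4.39 in wild type, and 2.69, 1.41, 1.36 and -2.32 in Egr1cKO control. The median biological coefficient of variation of the 4-group model fell from 0.33 to 0.283 when the library was left out. The female wild type group then held replicates 2 and 3, with a mean mitochondrial share of 2.42%, while the 3 female Egr1cKO control libraries had 4.9% ± 1.76 (SD, n = 3). Whether this share bears on the interaction was not tested, and with 2 libraries in a group the spread is assumed to be that of the other groups. Examples of the interaction without the library are Slc23a3, a solute carrier, and Npb, neuropeptide B, more female-biased in Egr1cKO control (interaction log2 values 3.49 and 3.94, edgeR's adjusted p = 0.0201 and 0.0396). In the other direction were Hapln2, a hyaluronan link protein of nodes of Ranvier, and Gpr37l1, a glial receptor (-5.77 and -5.46, edgeR's adjusted p = 0.0278 and 0.0282). Slc23a3 averaged 0.357 CPM in the female wild type libraries left and 3.02 in female Egr1cKO control, and Gpr37l1 averaged 2.12 and 0.27.

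**Figure D4:**
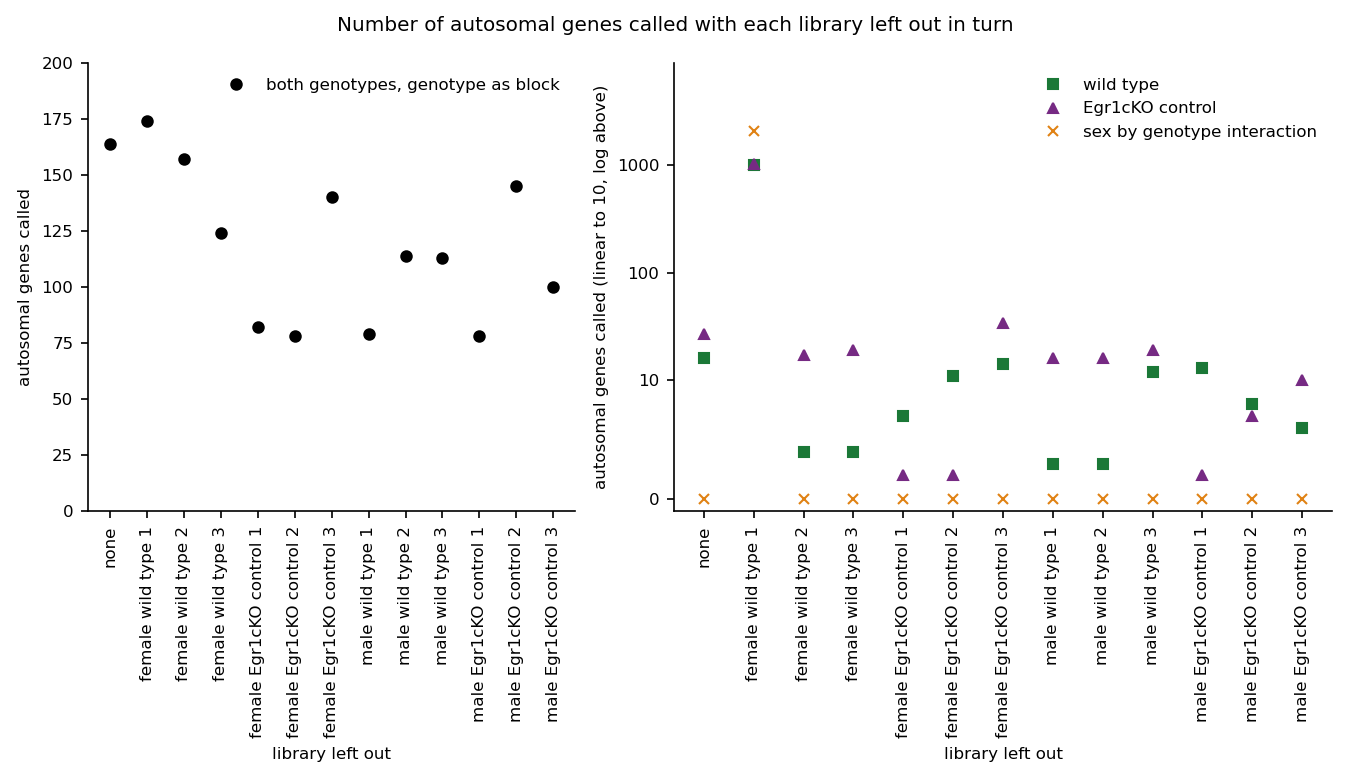
Number of autosomal genes that passed with no library left out and with each of the 12 libraries left out in turn; the left panel is the comparison with genotype as a block (linear axis), the right panel the wild type, the Egr1cKO control and the interaction (axis linear to 10 and logarithmic above). Leaving out female wild type 1 gave 1019, 1038 and 2097 genes in the right panel and 174 in the left one.

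Other libraries moved the count of 164 more than that one did. It fell to 79 without male wild type 1, to 78 without male Egr1cKO control 1, to 100 without male Egr1cKO control 3, to 82 without female Egr1cKO control 1 and to 78 without female Egr1cKO control 2. The 16 genes of wild type became 3 without male wild type 1 or 2, 4 without female wild type 2 or 3, 6 without male Egr1cKO control 3, 7 without female Egr1cKO control 1 and 8 without male Egr1cKO control 2. The 27 of Egr1cKO control became 2 without male 1, female 1 or female 2 of that group, 7 and 10 without its males 2 and 3, 16 without male wild type 1 or 2 and 17 without female wild type 2. Crhbp, Tacr1, Ptpn5, Vwde, Dmrta1, Slitrk5 and Prl passed with each of the 12 libraries left out in turn, as did Drd4, Grem1, Fshb, Loxhd1, Bdkrb2, Megf10, Adamts2, Fyb2, Ramp1, Lcn2, Cbln1, Agtr1a, Aldh1a2, Spp1, Inhbb and Adcyap1r1. Rxrg passed in 1 of these 12 fits, Ppp1r1c and Plvap in 2, and Opn3, Dapl1, Greb1, Fkbp5, Cacna1a and Cacna1g in 3. Dlk1 and Tgm6 passed in 4, Oxt, Col1a2, Reln and Capn8 in 5, and Csmd3 in 6. Rnase1 and Trim34b passed in 8, Rxfp1 in 9, Ihh in 10, and Gli1 and Pdha2 in 11. Rxfp1, Reln and Capn8 also no longer passed with the mitochondrial share or with genes detected as a covariate.

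The sex difference without Cre was set against that in the 12 libraries with Cre. With Cre, 5862 of 21184 autosomal genes differed between the sexes, 2545 higher in females and 3317 higher in males. This count came from the model of all 24 libraries, not from a fit of the 12 libraries with Cre alone. In that model 299 genes differed without Cre, 132 higher in females and 167 in males. The mitochondrial share with Cre was 5.52 to 10.4% in females and 2.08 to 3.79% in males, without overlap. Sex with Cre therefore cannot be told apart from that share. Of the 164 genes, 152 had the same sign with Cre. The share over all autosomal genes was not computed, so this count has no background to be read against. The difference itself was tested as an interaction over all 24 libraries. An unadjusted p under 0.05 was found for 4602 genes (21.7%). The adjusted test passed for 431 genes (2.03%), of which 274 were more female-biased without Cre (1.29%) and 157 less (0.741%). With the mitochondrial share as a covariate 59 passed, and with genes detected as a covariate 19. The count was 4358 without female wild type 1 and lay between 66 and 4358 with any 1 of the 24 libraries left out. It moved by over 1.5 times for every library except female Egr1cKO control 1, female Egr1cKO 1 and female Egr1cKO 2. Library totals in place of TMM moved the median interaction over all genes from 0.08 to 0.28 and the split from 274 and 157 to 517 and 77.

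Of the 164 genes, 17 also passed this interaction. Prl was higher in females in both settings but less so without Cre (log2 fold change with Cre 3.48, interaction -1.72, SE 0.362, edgeR's adjusted p = 0.0188). On the scale of all 24 libraries, male Prl averaged 40057 ± 3442 CPM in wild type and 33699 ± 16481 in Egr1cKO control, against 3630 ± 605 in Cre control and 5573 ± 1647 in Egr1cKO (SD, n = 3 each). Females averaged 134807 ± 19507, 114715 ± 30242, 65521 ± 9119 and 38585 ± 15457 CPM in the same order. Aebp1, Cacna1g, Greb1, Creb3l1 and Ptpn5 also had a smaller female excess without Cre, with interactions of -1.81, -1.57, -1.33, -1.64 and -3.30. That of Ptpn5 (edgeR's adjusted p = 0.0408) passed in 7 of 24 fits with a library left out and with neither covariate. Of the interactions in this paragraph, only those of Ptpn5 and Crhbp were followed through the fits with a library left out or a covariate. For Aebp1 the change lay in females, at 43.5 ± 0.698 CPM in wild type and 211 ± 33.1 in Cre control (SD, n = 3 each). For Greb1 it lay in males, at 74.4 ± 21.6 and 31.2 ± 3.57 CPM. Crhbp stood at 90.3 ± 26.9 CPM in wild type and 77.1 ± 28.5 in Cre control females, and at 0.318 ± 0.197 and 0.0256 ± 0.0222 in males, so its interaction of -4.92 rests on male levels of a few counts. Sema3a, a secreted axon guidance protein, Cadps2, a protein of vesicle priming, and Serpinb8, a protease inhibitor, were higher in females without Cre and not with it (log2 fold changes with Cre -0.13, -0.51 and -0.14; interactions 1.80, 1.34 and 1.55). B2m, the light chain of class I histocompatibility molecules, was higher in males without Cre (-0.81) and at 0.06 with it (interaction -0.87, edgeR's adjusted p = 0.0482). These 4 were chosen after their values were seen. Fshb had an interaction of -0.06 (SE 0.505, edgeR's adjusted p = 0.978). Gli1 had a log2 fold change of -0.30 with Cre, and its interaction of -2.39 did not pass (edgeR's adjusted p = 0.0525).

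Among the genes named for the interaction with Cre, the largest in size were positive, lay outside the 164 genes and were set by the libraries with Cre. In the negative direction the largest was that of Crhbp, which is among the 164. Chrna7 and Mir344-2 had the largest values, 8.63 and 7.75, and passed with neither covariate. Gpr139, an orphan receptor, and Cntnap4, a synaptic membrane protein, averaged 1.96 ± 1.11 and 5.19 ± 1.56 CPM in female wild type and 3.93 ± 1.26 and 9.15 ± 2.88 in male wild type (SD, n = 3 each). In Cre control females they were at 0 and 0.266 ± 0.461, with males at 3.97 ± 1.02 and 11.2 ± 3.16. Neither gene passed between the sexes without Cre (edgeR's adjusted p = 0.451 and 0.313). Both are low or absent in the female libraries with Cre, so their fitted interactions are no bounds.

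**Figure D5:**
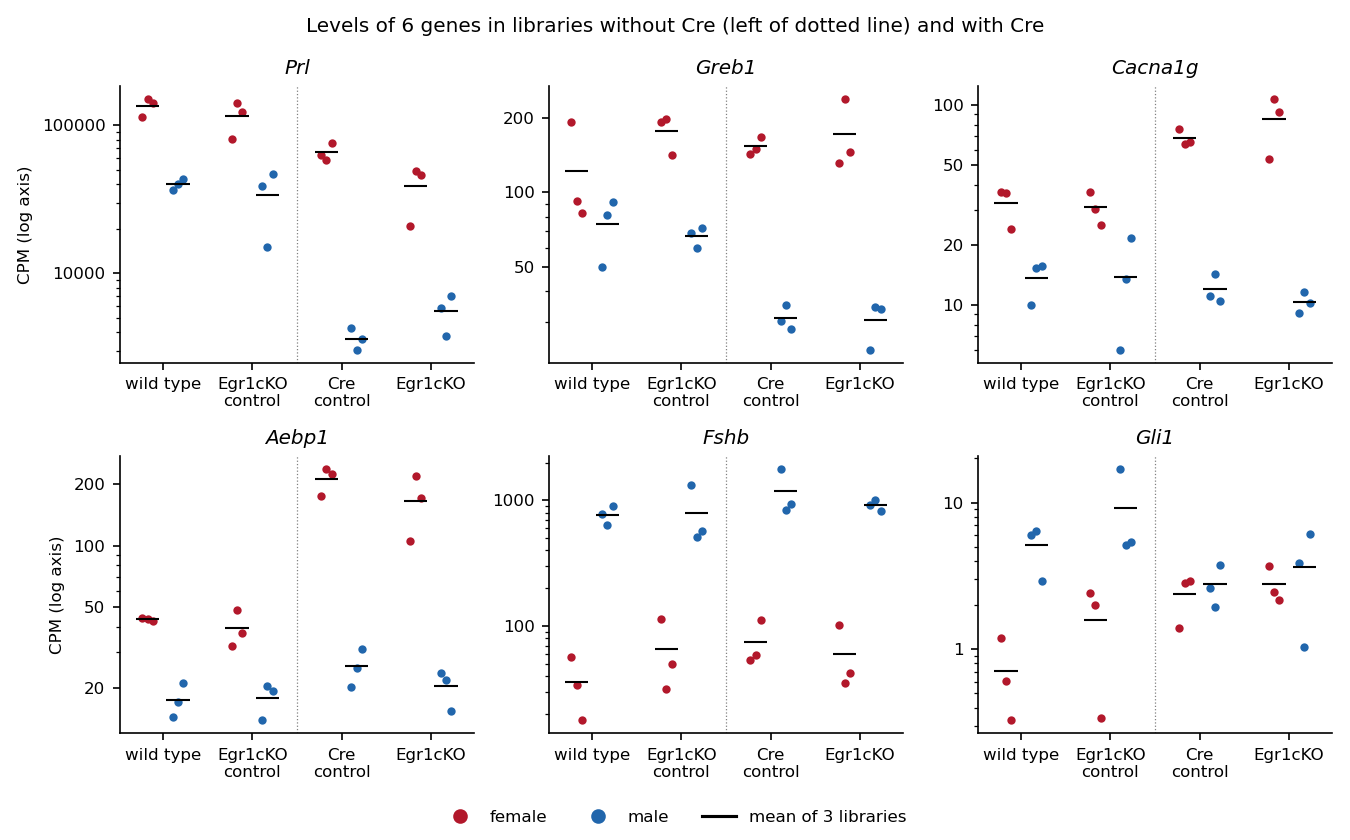
Levels in CPM (log axis, scale of all 24 libraries) of 6 genes in the 4 genotypes, females red and males blue; points are libraries and lines are means of 3. Prl in males and, less so, in females, and Aebp1 in females differ between the settings, while Fshb is higher in males in every genotype.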

How the data were processed

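RNA was extracted from pituitaries (RNeasy mini kit) and 1.5 ug of total RNA entered non-stranded sequencing of polyadenylated RNA, per the labels' protocols. The submitters' processing notes name Trim Galore 3.8.2, FastQC, STAR 2.7.9 and the build GRCm38, and give no counting tool or annotation. The authors deposited raw counts, whole-number reads per Ensembl gene, in 1 table of 24 libraries, and no column was without a sample. Gene names and coordinates came from GENCODE M21 (GRCm38), in which 35077 of 35191 identifiers matched, and promoters from RefSeq (GRCm38.p6).

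Counts were tested with edgeR 4.0.16 (R 4.3.3): TMM, the default filter on low counts, robust quasi-likelihood F tests, Benjamini-Hochberg adjustment over all 20277 genes tested (21927 in the fit of all 24 libraries), threshold 0.05. Only autosomal genes are reported. Sex was tested with genotype as a block (9 residual degrees of freedom), sex within a genotype and its interaction in a model of 4 group means (8), and the interaction with Cre in a model of 8 group means over all libraries (16). Positive log2 fold changes mean higher in females. SE is the log2 fold change divided by the square root of F. CPM values are on the TMM scale of the 12 libraries unless the scale of all 24 is named. The biological coefficient of variation had a median of 0.335.

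Replicates were numbered in accession order. Library measures were compared with exact permutation tests. Intervals of count ratios are exact at 95% and, like the floor of 3 counts, cover counting error only. Genes named were the 15 largest differences in each direction with an adjusted p under 0.05, at least 1 CPM in 1 sex and the same sign in both genotypes, without predicted genes and pseudogenes; the hormone genes; for each list, up to 4 members of smallest p; and up to 5 genes in each direction of an interaction, ranked by log2 size with at least 1 CPM in 1 group, or the 3 with the smallest p where none passed. Other genes, such as Drd2, Col1a1, Thy1 and Creb3l1, were chosen after their values were seen. The members and lists were chosen with earlier results of these data known; a list of 4 genes (Ptpn5, Rxfp1, Rnase1, Vwde), all 4 of them higher in females here, was taken from such results and is no independent evidence. Alternatives covered libraries left out, the block, normalization, filters, covariates, DESeq2 1.42.0 and non-robust fits.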

Additional observations from a re-analysis of the deposited data

Results flagged for a closer look

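Among 100 sets of 6 values tested, 7 held a library far from the other 5 of its sex by Dixon's criterion, which chance meets in about 1 in 20 sets. Female Egr1cKO control 3 accounted for 4 of them: Crhbp at 17.7 CPM against 57 to 100 in the other females, Pomc at 11340 against 25344 to 37825, Cga at 1774 against 804 to 1000, and Plvap at 78.2 against 49 to 57.8. Male Egr1cKO control 2 held 14746 CPM of Prl against 34867 to 44820 in the other males, and male Egr1cKO control 1 held 1.92 CPM of Slitrk5 against 4.46 to 6.39. Female wild type 1 held 94.5 CPM of Oxt against 39 to 46.1.

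The sex difference differed between libraries without and with Cre for 431 autosomal genes by the interaction test. Of the genes named for it, Chrna7, a nicotinic receptor subunit, Mir344-2, Gpr139, Cntnap4 and Lilra6 had log2 interactions of 8.63, 7.75, 6.39, 6.14 and 5.99, each with a group of female libraries with Cre at or near 0 counts. Mir344-2 (244 counts in the 12 libraries) overlaps A330076H08Rik on the same strand (9338), and its reads cannot be told apart from that gene's. In the other direction were Crhbp at -4.92, Il11, a cytokine, at -4.06, Ptpn5 at -3.30, Nr2c2ap at -3.07 and Ahrr, a repressor of the aryl hydrocarbon receptor, at -2.88. Nr2c2ap (362 counts) overlaps Rfxank on the opposite strand (3492 counts), so its reads are uncertain too. A further 3 genes of the comparison without Cre were Prl at -1.72, Cacna1g at -1.57 and Greb1 at -1.33. The mitochondrial share separated the sexes with Cre. With it as a covariate Chrna7, Il11, Lilra6, Mir344-2, Nr2c2ap, Ahrr, Crhbp and Ptpn5 no longer passed, whereas Gpr139 and Cntnap4 did. With each library left out in turn, Gpr139 and Cntnap4 passed in 24 of 24 fits, Crhbp in 23 and Chrna7 in 18. Nr2c2ap passed in 12, Ahrr and Mir344-2 in 8, Lilra6 and Ptpn5 in 7, and Il11 in 6.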

How the results depend on the processing

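No paired analysis was possible because the labels give no replicate numbers that pair libraries across groups; the numbers follow accession order. The count of 164 genes became 299 with all 24 libraries in the model, 394 with the mitochondrial share as a covariate, 353 with genes detected as a covariate and 480 with DESeq2, and lay between 78 and 174 with each library left out. The 16 genes of wild type became 48, 490, 100 and 169 under the same settings, 94 without a filter and 10 at a mean of at least 10 CPM, with 3 to 1019 when a library was left out. The 27 of Egr1cKO control became 84, 123, 87 and 221, 136 without a filter and 14 with library totals, with 2 to 1038. The interaction with genotype gave 2 genes without a filter, 1 with DESeq2 and 0 to 2097 with a library left out. The interaction with Cre gave 1980 without a filter, 59 and 19 with the covariates, 1317 with DESeq2, and 66 to 4358 with a library left out. Leaving out both libraries of highest mitochondrial share, female wild type 1 and female Egr1cKO control 2, chosen after seeing the data, gave 1108, 95, 1279 and 4431 for these 4, and 116 for the sex difference, 95 of them among the 164. With library totals the 164 became 122, 39 higher in females and 83 in males. For the 49 genes carried through the alternatives for the sex difference, no direction reversed; 969 values kept their side of the threshold and 191 no longer passed. The cause of these shifts was not tested. With 3 libraries a group and genes near 1 CPM, small differences may have gone undetected.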

Other observations

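Other genes that passed were chosen here after their values were seen. In females, Akr1c14, a hydroxysteroid dehydrogenase of progesterone and androgen metabolism, held 37.2 to 166 CPM against 18.7 to 55.9 in males (log2 fold change 1.55, edgeR's adjusted p = 0.019). Abcb1b, a drug and steroid efflux transporter, was higher in every female at 12.1 to 45.2 against 4.48 to 8.85 CPM (2.13, edgeR's adjusted p = 0.00444). Stat5a, which carries prolactin receptor signals, and Calb1, a calcium-binding protein, were higher in females with overlapping groups (0.88 and 1.15, edgeR's adjusted p = 0.0322 and 0.0397). In males, Nnat, an imprinted membrane protein gene, held 2942 to 4162 CPM against 871 to 2289 in females without overlap (-1.21, edgeR's adjusted p = 0.0265).

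Male wild type 3 held the highest male value of both Rxfp1 (37.7 against at most 13.1 CPM in the other males) and Reln (40.7 against at most 12.7). Male Egr1cKO control 3 was next in both. The cause was not tested.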
